A study of Mus musculus with 13 samples.

Results

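Saliva carries secreted proteins that bind, starve or kill microbes, and the gland also passes IgA from its stroma into the lumen. The expression of 10 genes of these systems was followed through development of the mouse submandibular gland. They were chosen by name, as the receptor and joining chain of IgA transport (Pigr and Igj), iron-binding and siderophore-binding proteins (Ltf and Lcn2), the salivary peroxidase (Lpo), the lysozymes (Lyz1 and Lyz2) and small secreted proteins with the whey acidic protein fold (Slpi, Wfdc2 and Wfdc18). The choice was made with earlier results of these data known. All 10 are among the 23364 genes of the files, and all 10 passed the filter on low values with 14650 genes tested.

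The study profiled RNA of whole submandibular glands from C57BL/6 mice by sequencing. Its 13 samples comprise 3 of embryonic day E14.5 and 2 of each other age, namely E16.5, E18.5, postnatal day 5 (P5), 4 weeks (4wk) and 12 weeks (12wk). Embryonic glands were pooled, from 3 animals for a sample of E14.5 and from 2 for a sample of E16.5 or E18.5. Animals at 4wk and 12wk were male, sex was not determined at the earlier ages, and neither a transgene nor a treatment is named. In the comparisons by stage, embryo stands for the 7 samples of E14.5, E16.5 and E18.5, and adult for the 4 samples of 4wk and 12wk. The errors and p-values of these comparisons therefore include changes between the ages within a stage, and not replicate spread alone. In whole tissue, fewer cells of a type and less RNA per cell cannot be told apart.

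In the gland, plasma cells of the stroma release dimeric IgA held together by the joining chain. The polymeric immunoglobulin receptor binds it at the base of acinar and duct cells, carries it through the cell, and is cut at the lumen so that its outer part leaves as secretory component. The epithelium adds peroxidase, lysozyme, metal-sequestering proteins and protease inhibitors to the same fluid. Several of these proteins are also made by leukocytes, lactoferrin and lipocalin by neutrophils and lysozyme by macrophages.

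Levels are given as FPKM, the deposited unit, in which reads are scaled to the length of the gene and to the reads of the sample, so that levels of different genes can be compared. Differences are log2 fold changes of FPKM + 1, which understates changes of genes with low values. A gene was called higher or lower when its log2 fold change was at least 1 in size and its adjusted p was below 0.1 (limma with Benjamini-Hochberg adjustment over all 14650 tested genes). Reads on genes, recovered from the values, numbered between 5817293 and 48314162 per sample, and the 4wk samples were the shallowest. Replicates are biological, from separate animals or pools, and with 2 or 3 per time point the error of each mean is poorly known.

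The scale of these values moved with age. The 10 most abundant genes took from 5.9% of the summed FPKM in 1 embryonic library to 31.1% in 1 of P5, and at least 48.1% in every adult library. The median log2 fold change of all tested genes was −0.75 for adult against embryo, −0.53 for adult against P5 and for 4wk against P5, −0.25 for P5 against embryo, −0.14 for E18.5 against E16.5 and −0.12 for P5 against E18.5. It was 0 for the other comparisons. Median-of-ratios rescaling brought all of these medians to between −0.05 and 0.01, and calls of the members that changed with it are given. In adult against embryo, 5.58% of all tested genes were called higher and 38% lower (13.8 and 14.7% after rescaling), and counts of gene lists in that comparison are to be read beside these shares.

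Of the markers of the gland, Aqp5, the acinar water channel, stood between 0.57 and 9.13 FPKM at E14.5 and between 94.35 and 262.5 FPKM in the 10 later samples. Epcam and Krt8, pan-epithelial genes, were at 101.5 FPKM or more and at 86.95 FPKM or more in every sample. Several libraries stood apart. E14.5 replicate 1 had high cartilage genes, with Col2a1 at 142 FPKM against 2.87 and 4.04 in its replicates, and had the lowest Epcam, 101.5 FPKM. In 12wk replicate 2, the secretory genes Amy1, Smr3a, Bpifa2 and Chia were between 8.97 and 10.2 times as high as in replicate 1. Ucp1 of brown fat was at 106 FPKM in 4wk replicate 1 and at 0 in replicate 2, and at 311 and 59.2 FPKM at P5. The part of these differences in the values of the members was not tested, and calls of the members that changed without 1 library are given with and without it.

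**Figure D1:**
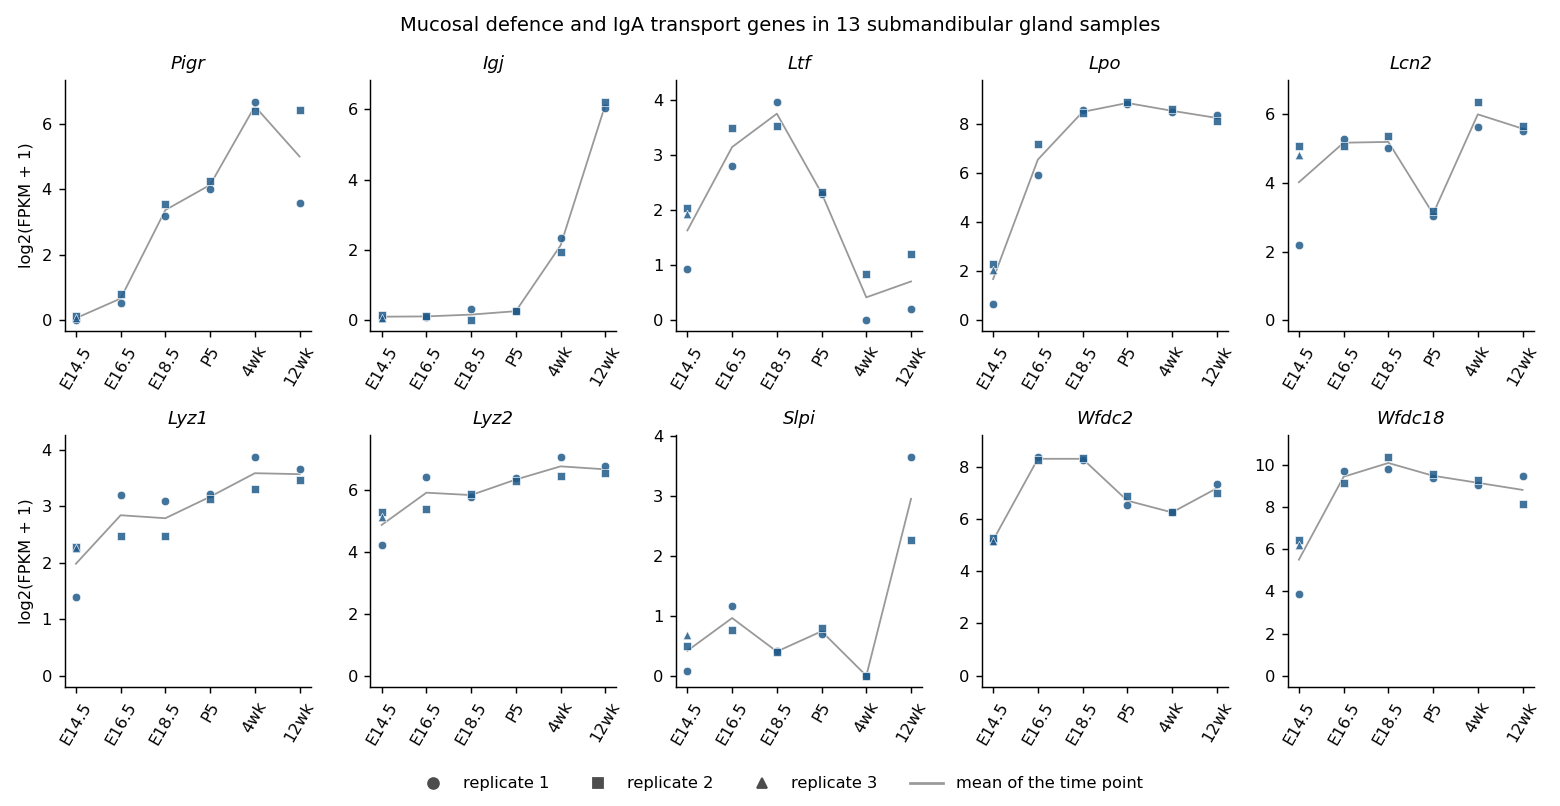
Level of each of the 10 genes in the 13 samples, as log2(FPKM + 1) on the vertical axis against time point on the horizontal axis, with 1 symbol per sample and a line through the means. Pigr and Igj climb to their highest means in adult glands, Ltf and Wfdc2 are highest before birth, and Lcn2 is low at P5.

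Pigr, the receptor that carries IgA through the epithelium, was close to undetected at E14.5, and was called higher at E18.5 and again at 4wk. It lies at chr1:132723261-132748826 on the plus strand (mm9, GENCODE vM1). At E14.5 it was at 0, 0.082 and 0.049 FPKM, where 0 reads in replicate 1 allow up to 0.0405 FPKM (3 reads). It was at 0.444 and 0.731 FPKM at E16.5, and at 7.98 and 10.8 FPKM at E18.5. The mean of E16.5 was 13.5 times that of E14.5, but the log2 fold change of 0.60 ± 0.575 (SE) was not called (adjusted p = 0.514). With a pseudocount of 0.1 this step was called (2.27, adjusted p = 0.0407). These 3 embryonic time points did not overlap, and the mean of 9.39 ± 1.98 FPKM (SD, n = 2) at E18.5 was 16.0 times that at E16.5. The log2 fold change of E18.5 against E16.5 was 2.70 ± 0.63 (SE), a call higher (adjusted p = 0.0234). This call was lost without E18.5 replicate 2 (2.51, adjusted p = 0.164).

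The level of Pigr rose again after birth. It was at 15.02 and 18.1 FPKM at P5 and at 101 and 82.8 FPKM at 4wk, so that the 4wk mean was 5.55 times the P5 mean with no overlap. The fit gave a log2 fold change of 2.40 ± 0.63 for 4wk against P5 (adjusted p = 0.00728). P5 was also called above the pooled embryonic samples, by 2.96 ± 0.99 (adjusted p = 0.0403), and the call was lost without either P5 sample (adjusted p = 0.184 and 0.225). From E18.5 to P5 alone the difference was 0.77 with a 95% interval from −0.62 to 2.15, and it was not called (adjusted p = 0.439).

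At 12wk the Pigr values of the replicates lay far apart, at 10.8 and 85.2 FPKM, a ratio of 7.86. These values stand on 911 and 9325 reads. Of 4531 genes with at least 10 FPKM in either 12wk sample, 11 differed at least as much, Pigr included (log2 of FPKM + 1). Its higher value was in replicate 2, the library with more Amy1, Smr3a, Bpifa2 and Chia. The 12wk samples therefore overlapped those of 4wk, and the log2 fold change of −1.53 ± 0.63 was not called (adjusted p = 0.146). Without 12wk replicate 2 it was −2.97 (adjusted p = 8.83e-05), and without 12wk replicate 1 it was −0.10 (adjusted p = 0.896). Adult against embryo gave 4.59 ± 0.77 (adjusted p = 9.99e-05), a call that was kept in all 22 alternatives. Adult against P5, at 1.64 ± 1.07, was not called (adjusted p = 0.22) but was without 12wk replicate 1 (2.37, adjusted p = 0.0655). In the order of its levels, 4wk, 12wk, P5, E18.5, E16.5 and E14.5, the samples of 12wk overlapped those of both neighbours and the other neighbours did not overlap.

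The 250 bases before the Pigr start site are shown because the promoter of this gene is known to bind E-box factors. They lie at chr1:130826434-130826683 on the plus strand of GRCm38.p6 (RefSeq), a later build than the mm9 of the values. The capitals mark the E-box CACGTG, whose first base is 71 bases before the start site.
Pigr: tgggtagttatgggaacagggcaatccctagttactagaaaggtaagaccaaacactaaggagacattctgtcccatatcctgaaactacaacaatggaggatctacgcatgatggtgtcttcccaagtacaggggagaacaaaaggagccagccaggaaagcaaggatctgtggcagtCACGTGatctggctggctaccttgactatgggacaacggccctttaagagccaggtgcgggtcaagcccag

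The same palindrome was found 146 bases before the start of Slpi and in no other member, so in 2 of 10 members, where 7.15% of 32851 RefSeq promoters of 300 bases (250 before and 50 after the start) hold it. Both strands were searched for further motifs. The pattern of nuclear factor kappa B was found in the promoters of 4 of 10 members (Pigr, Ltf, Lcn2 and Wfdc2) and in 50.8% of all promoters, and the C/EBP pattern TTNNGNAA in 8 of 10 and in 40.7% of all. An interferon regulatory factor pattern and an Ets pattern (CCGGAAG) were found in none of the members, with 3.44 and 8.86% of all promoters holding them. The TATA box TATAAA was found in Wfdc18 alone, against 13.6% of all. These patterns can overlap one another, and a match is a description of the letters only.

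Igj, the joining chain of polymeric IgA and IgM, was near the limit of detection until P5 and then rose at both 4wk and 12wk. It lies at chr5:88949537-88956916 on the minus strand (mm9). In the 9 embryonic and P5 samples it stood between 0 and 0.247 FPKM, with all time points to P5 overlapping except P5 with E14.5 and E16.5. It was at 4.01 and 2.81 FPKM at 4wk (49 and 47 reads) and at 64.4 and 73.4 FPKM at 12wk. The mean at 4wk was 17.5 times that at P5, and the mean at 12wk was 20.2 times that at 4wk.

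The 4 adult samples were above all others, and the 12wk samples above those of 4wk. The log2 fold changes were 1.87 ± 0.18 for 4wk against P5 (adjusted p = 1.54e-05) and 4.00 ± 0.18 for 12wk against 4wk (adjusted p = 5.57e-07). Adult against embryo gave 4.01 ± 0.69 (adjusted p = 0.000119), and adult against P5 gave 3.87 ± 0.95 (adjusted p = 0.00561). All 4 calls were kept in all 22 alternatives. At E18.5, where Pigr rose, Igj was at 0.247 and 0 FPKM (0 reads allow up to 0.0441 FPKM), and from 4wk to 12wk Igj rose where Pigr was not called.

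**Figure D2:**
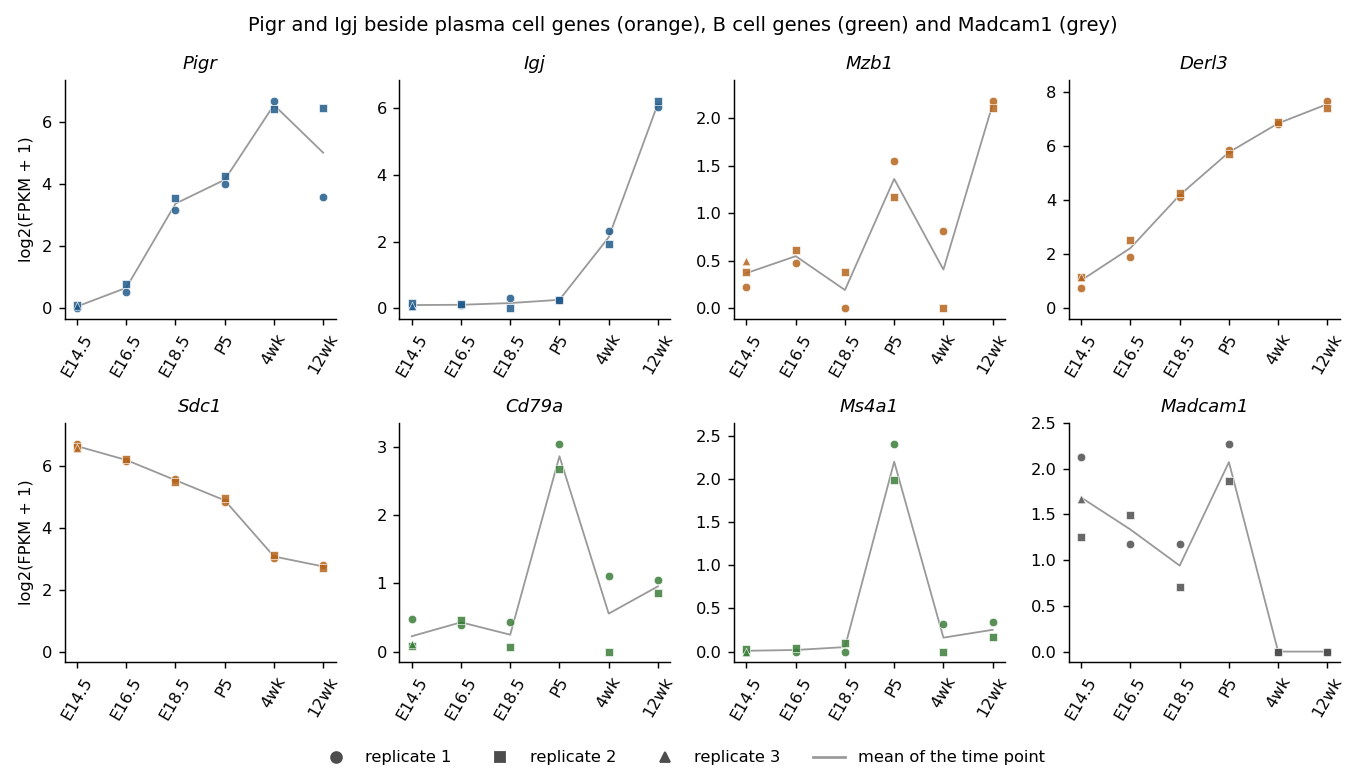
Pigr and Igj beside plasma cell genes (Mzb1, Derl3, Sdc1), B cell genes (Cd79a, Ms4a1) and Madcam1, as log2(FPKM + 1) against time point with 1 symbol per sample and a line through the means. Igj is highest at 12wk, whereas Cd79a and Ms4a1 have their highest values in the P5 samples.

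Few plasma cell genes are in the files, and of these Mzb1 alone was called higher with Igj from 4wk to 12wk. Of 23 listed plasma cell and immunoglobulin genes 11 are in the files and 9 were tested, and the heavy and light chain constant genes, Igha included, were not analysed here. In adult against embryo, 3 of 9 were called higher and 1 lower, against 5.58 and 38% of all genes. Their median log2 fold change was 0.84, against −0.75 over all genes. In adult against P5, where Igj was higher, none of 9 was called higher and Sdc1 was lower, against 2.31 and 20.8% of all genes. The median there was −0.06, against −0.53 over all genes. Mzb1, a chaperone of antibody-secreting cells, was at 0.759 and 0 FPKM in the shallow 4wk libraries. It was at 3.54 and 3.30 FPKM at 12wk (log2 fold change 1.74 ± 0.25, adjusted p = 0.00155). At P5, however, Mzb1 was at 1.92 and 1.26 FPKM, above both 4wk samples, where Igj was at 0.197 and 0.192 FPKM. From P5 to 4wk the 2 genes therefore did not move together. Derl3, of the degradation pathway of the endoplasmic reticulum, went from between 0.699 and 1.26 FPKM at E14.5 to 203 and 169 FPKM at 12wk (adult against embryo 4.91 ± 0.61, adjusted p = 6.54e-06). Fkbp11 (1.73 ± 0.44), a protein folding factor of secretory cells, and Eaf2 (1.13 ± 0.30) were the other genes called higher in the adult than in the embryo. Fkbp11 was already at 68.1 and 85.5 FPKM at E18.5, up from between 13.8 and 19.45 FPKM at E14.5, when Igj was near 0. Sdc1, a proteoglycan of plasma cells and of epithelia, fell from between 96.0 and 105 FPKM at E14.5 to 6.01 and 5.51 FPKM at 12wk (adult against embryo −3.29 ± 0.23, adjusted p = 3.81e-08). Secretory epithelium also expresses Derl3, Fkbp11 and Sdc1, and the part of plasma cells in their values was not tested.

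Genes of B cells showed another course. Of 8 tested, 5 were called higher at P5 than in the embryo, where 4.14% of all tested genes were, with a median of 1.35 against −0.25 over all genes. From P5 to 4wk 5 of 8 were called lower, where 22.1% of all genes were (8.75% after rescaling), with a median of −1.31 against −0.53. Cd79a, of the antigen receptor, was at 7.30 and 5.43 FPKM at P5, at most 0.39 FPKM in the embryo, and at 1.17 and 0 FPKM at 4wk. Ms4a1 (CD20) was at 4.31 and 2.97 FPKM at P5 and at most 0.27 FPKM in every other sample. Cd79b was at 7.34 and 5.74 FPKM at P5, and at 5.02 FPKM in 4wk replicate 1 but at 0 in replicate 2. Blnk, an adaptor of the receptor, was the 1 gene of the list called higher in adult against embryo (1.09 ± 0.22). These genes were high where Igj was at 0.197 and 0.192 FPKM.

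Of 11 tested genes that guide and keep IgA cells, 5 were called lower and none higher in adult against embryo, against 38 and 5.58% of all genes. Their median log2 fold change was −0.94, against −0.75 over all genes. Madcam1, the vascular ligand of gut-homing lymphocytes, was between 0.63 and 3.36 FPKM in the embryo, at 3.83 and 2.66 FPKM at P5, and listed at 0 in all 4 adult samples. The adhesion molecule Vcam1 (−2.59 ± 0.26), the chemokine receptor Cxcr4 (−2.36 ± 0.19) and its ligand Cxcl12 (−1.99 ± 0.31) were lower in the adult than in the embryo (adjusted p = 8.19e-07, 1.06e-07 and 5.7e-05). Cxcl12 was higher at 12wk, at 8.04 and 8.20 FPKM, than at 4wk, at 3.77 and 3.12 FPKM (1.04 ± 0.21, adjusted p = 0.00949). Ccl28, the chemokine of mucosal IgA cells, was listed at 0 in all 13 samples (it was named after its values were seen), as were 3096 of the 23364 genes, so that no absence is read from it.

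Of 20 tested genes of transcytosis, the vesicle transport through the cell, 4 were called higher at E16.5 than at E14.5, namely Rab3d, Myo5b, Rab25 and Rab17, which were chosen after their values were seen (4.17% of all genes were called higher in this step). Rab3d of secretory vesicles went from between 4.67 and 5.83 to 36.3 and 44.3 FPKM (2.72 ± 0.12, adjusted p = 2.84e-07), when Pigr was below 1 FPKM. In adult against embryo none was called higher and 3 were lower, Yes1 (−1.32 ± 0.20), a kinase implicated in receptor transcytosis, Cplx2 (−1.30 ± 0.18) and Rab11b (−1.13 ± 0.16). Their median was −0.08, above the −0.75 of all genes. Among 23 receptors and mediators that are known to act on Pigr expression, none was called higher and 3 lower in adult against embryo, the receptor chains Ifngr2 (−1.34 ± 0.15), Tnfrsf1a (−1.14 ± 0.15) and Il4ra (−1.10 ± 0.15). Of all genes 38% were called lower in this comparison (14.7% after rescaling), and the median of the 23 was −0.38 against −0.75 over all genes. Relb, a subunit of nuclear factor kappa B, was called lower in adult against P5 (−1.22 ± 0.32, adjusted p = 0.00852). Of the 23, it was the 1 called lower there, against 20.8% of all genes (8.56% after rescaling). Pigr was not called in that comparison.

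Ltf, the iron-binding lactoferrin of secretions and neutrophil granules, was highest in fetal glands. It lies at chr9:110921796-110945270 on the plus strand (mm9). It was at 0.91, 3.11 and 2.80 FPKM at E14.5, at 5.95 and 10.3 FPKM at E16.5, and at 14.7 and 10.6 FPKM at E18.5. It was down to 3.90 and 4.02 FPKM at P5. In the adult it was at 0 and 0.779 FPKM at 4wk and at 0.150 and 1.31 FPKM at 12wk. Levels ran in the order E18.5, E16.5, P5, E14.5, 12wk and 4wk, with overlap only of E14.5 with 12wk and of 12wk with 4wk.

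Ltf was called higher at E16.5 than at E14.5 (1.52 ± 0.40, adjusted p = 0.0242), a call lost without E16.5 replicate 2 (1.17, adjusted p = 0.142) and with a pseudocount of 0.1 (1.91, adjusted p = 0.188). It was called lower at P5 than at E18.5 (−1.44 ± 0.44, adjusted p = 0.0425), and lower at 4wk than at P5 (−1.90 ± 0.44, adjusted p = 0.0036). Adult against embryo gave −2.11 ± 0.49 (adjusted p = 0.0014), and after rescaling −1.64 (adjusted p = 0.0129). The step from E18.5 to P5 was no longer called after rescaling (−1.29, adjusted p = 0.112), nor without E18.5 replicate 1 (−1.224, adjusted p = 0.21) or without either P5 sample (adjusted p = 0.178 and 0.157). Adult against P5 was called (−1.75 ± 0.68, adjusted p = 0.0486) and was lost after rescaling (−1.47, adjusted p = 0.141) and without either P5 sample (adjusted p = 0.178 and 0.168).

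Lcn2, which sequesters bacterial siderophores, was low at P5 and rose by 4wk. It lies at chr2:32240153-32243317 on the minus strand (mm9). It was at 3.53, 32.4 and 27.2 FPKM at E14.5, at 37.4 and 32.7 FPKM at E16.5, and at 31.6 and 40.1 FPKM at E18.5. It was at 7.16 and 7.98 FPKM at P5, then at 48.4 and 81.6 FPKM at 4wk and at 44.8 and 49.0 FPKM at 12wk. The P5 samples were below all others except E14.5 replicate 1, the library with high Col2a1, and the 4 adult samples were above all embryonic ones. Levels of 4wk and 12wk overlapped, as did those of E18.5 with both E16.5 and E14.5.

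The rise of Lcn2 from P5 to 4wk was 2.90 ± 0.71 on the log2 scale (adjusted p = 0.00489), a ratio of means of 8.59. Adult against P5 gave 2.69 ± 0.67 (adjusted p = 0.00606), and both were kept in all 22 alternatives. The fall from E18.5 to P5 was −2.10 ± 0.71 (adjusted p = 0.0628) and was lost after rescaling (−1.93, adjusted p = 0.108) and without any 1 of the 4 samples compared (adjusted p between 0.164 and 0.23). P5 against embryo was −1.59 ± 0.62 (adjusted p = 0.0705), and was lost in 10 of 22 alternatives. Among these were rescaling (−1.335, adjusted p = 0.153), leaving out P5 replicate 1 or 2 (adjusted p = 0.282 and 0.255), and leaving out E14.5 replicate 2, E14.5 replicate 3 or E16.5 replicate 1 (adjusted p between 0.1004 and 0.106). Adult against embryo was 1.11 ± 0.49 (adjusted p = 0.0514). It fell to 0.69 (adjusted p = 0.00225) without E14.5 replicate 1, below the threshold of fold, and to 0.91 (adjusted p = 0.145) without 4wk replicate 2. Slc22a17, reported as a receptor of the protein and named after its values were seen, was lower in the adult than in the embryo (−1.63 ± 0.21, adjusted p = 8.89e-06).

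**Figure D3:**
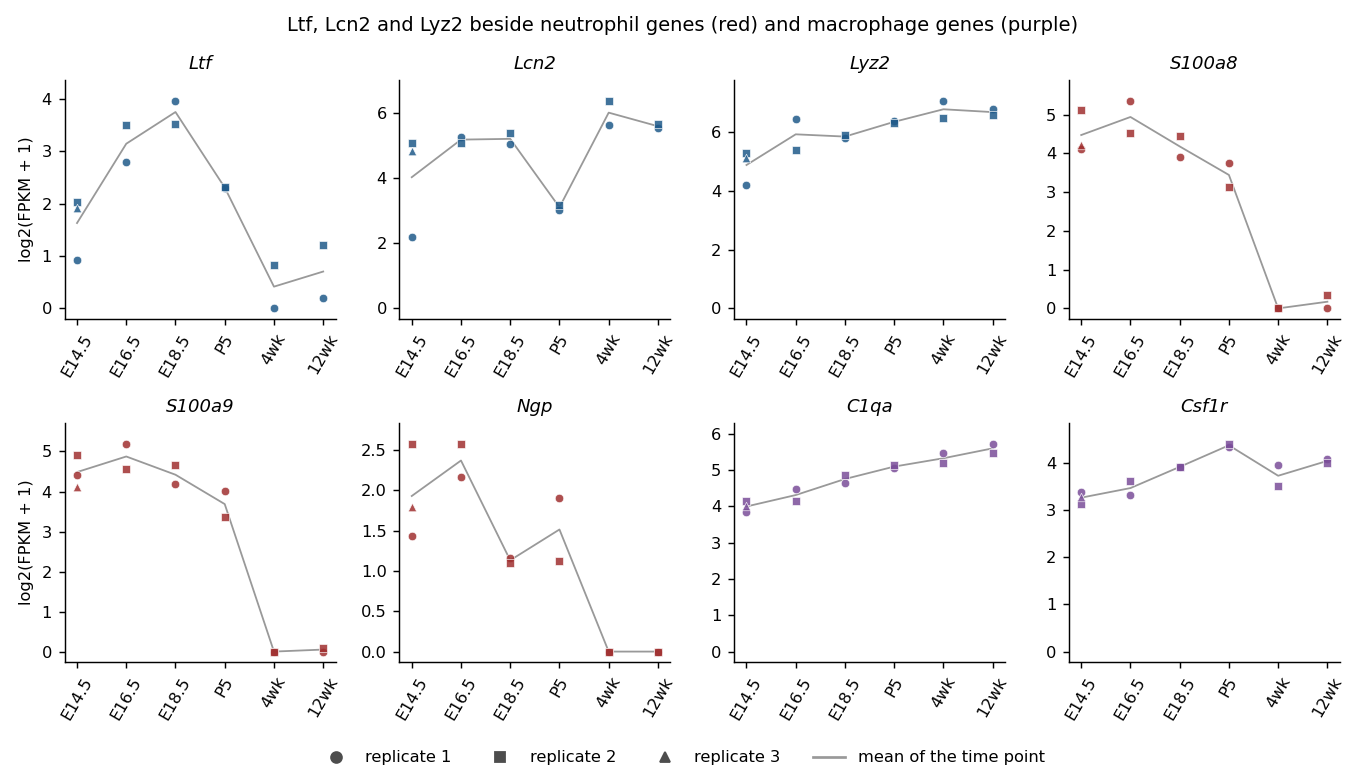
Ltf, Lcn2 and Lyz2 beside neutrophil genes (S100a8, S100a9, Ngp) and macrophage genes (C1qa, Csf1r), as log2(FPKM + 1) against time point with 1 symbol per sample and a line through the means. S100a8, S100a9 and Ngp are lowest in the 4 adult samples, where Lcn2 and Lyz2 are highest, and Ltf at 12wk overlaps Ltf at E14.5.

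Of 20 listed neutrophil genes, 19 are in the files and 14 were tested, with 6 called lower in adult against embryo and none higher. On the deposited scale the list did not stand apart from all genes, of which 38% were called lower. After rescaling 14.7% of all genes were, and the list was not counted on that scale. The median of the list was −0.74 against −0.75 before rescaling, but some of its members changed by much more. Their summed level was between 52.0 and 108 FPKM in the embryo, 28.5 and 46.1 FPKM at P5, and between 1.54 and 8.75 FPKM in the adult. S100a8 and S100a9, the calprotectin subunits, were between 14.0 and 40.2 FPKM in the embryo and at most 0.27 FPKM in the adult (adult against embryo −4.44 ± 0.26 and −4.55 ± 0.20, adjusted p = 7.76e-09 and 9.03e-10). Camp, a cathelicidin of the same granules as lactoferrin, was between 1.925 and 4.61 FPKM in the embryo and at most 0.077 FPKM in the adult (−1.97 ± 0.20, adjusted p = 1.24e-06). Stfa1, a stefin, was also lower (−2.31 ± 0.67, adjusted p = 0.00649). It was at 7.32, 0 and 0 FPKM at E14.5, between 6.21 and 11.55 FPKM at E16.5 and E18.5, and at 0 in the adult. Mpo and Elane, of the primary granules, were at most 1.60 and 0.94 FPKM in any sample. Not all genes of the list had this course. Csf3r was between 0.297 and 0.969 FPKM in the embryo and between 0.217 and 0.691 FPKM in the adult. Mmp9 was highest in 12wk replicate 1, at 3.07 FPKM, and Retnlg in 4wk replicate 1, at 2.83 FPKM. From 4wk to 12wk, 1 of the 14 was called higher and none lower, against 2.68 and 2.48% of all genes. The highest Ltf value was in an E18.5 sample and the highest summed neutrophil level, 108 FPKM, in an E16.5 sample. In that sample S100a8 and S100a9 alone were at 40.2 and 35.6 FPKM. The part of neutrophils in the Ltf values was not tested.

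Lyz2, the lysozyme of macrophages, was present at every age, and its level was about 10 times that of Lyz1 per length of transcript. Lyz2 was at 17.6, 38.2 and 34.2 FPKM at E14.5, 86.5 and 41.4 FPKM at E16.5, 54.8 and 58.7 FPKM at E18.5, 82.8 and 78.8 FPKM at P5, 134 and 88.45 FPKM at 4wk, and 110 and 94.2 FPKM at 12wk. The adult samples were above all others. Adult against embryo gave 1.28 ± 0.31 (adjusted p = 0.00205), kept in all 22 alternatives. E16.5 against E14.5 was called at 1.05 ± 0.34 (adjusted p = 0.0546), but not without E14.5 replicate 1 (0.71, adjusted p = 0.129) or without E16.5 replicate 1 (0.52, adjusted p = 0.399). P5 against embryo, at 0.90 ± 0.40, was not called (adjusted p = 0.105), but was after rescaling (1.15, adjusted p = 0.073) and without E16.5 replicate 1 (1.06, adjusted p = 0.0408). The difference of 4wk from P5 was 0.43 ± 0.37 (adjusted p = 0.341), and after rescaling it was called higher, at 1.096 (adjusted p = 0.0439).

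Lyz1, the lysozyme of intestinal Paneth cells, was between 1.64 and 13.6 FPKM and moved with Lyz2. Adult against embryo gave 1.12 ± 0.28 (adjusted p = 0.00212), and 0.94 without E14.5 replicate 1 (adjusted p = 0.00108), below the threshold of fold. Its difference of 4wk from P5 was likewise called only after rescaling (0.42 and 1.04, adjusted p = 0.315 and 0.0263), as was adult against P5 (0.41 and 1.04, adjusted p = 0.393 and 0.0561). E16.5 against E14.5, at 0.86 ± 0.31, was not called (adjusted p = 0.0819, under the threshold of fold), but was without E14.5 replicate 2 (1.01, adjusted p = 0.0772) and without E16.5 replicate 2 (1.22, adjusted p = 0.0511). The ratio of Lyz1 to Lyz2 was between 0.0931 and 0.111 in 11 of 13 samples, and 0.138 and 0.0776 in the E18.5 samples, with between 40 and 506 reads on Lyz1. In the order of levels of both genes, 4wk, 12wk, P5, E16.5, E18.5 and E14.5, the samples overlapped between 4wk and 12wk, between P5 and E16.5 and between E16.5 and E18.5.

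**Figure D4:**
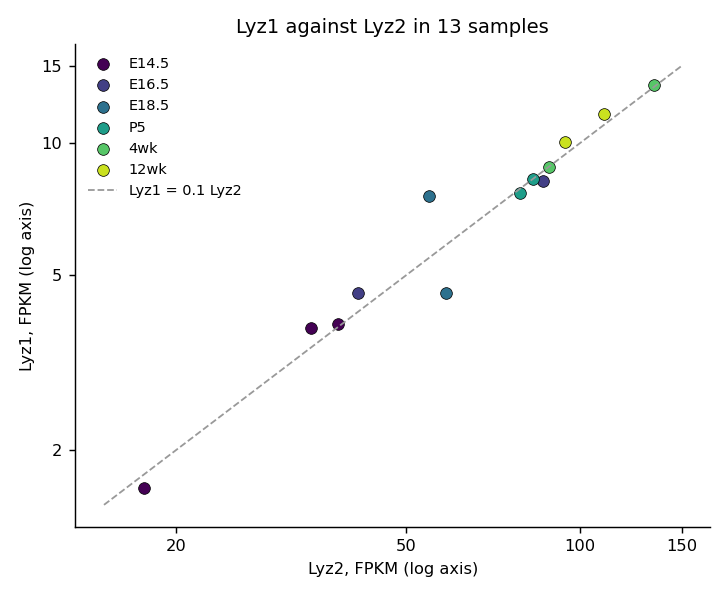
Lyz1 against Lyz2 in the 13 samples, both as FPKM on log axes, coloured by time point, with a dashed line at a ratio of 0.1. The samples lie along the line, with ratios between 0.0776 and 0.138.

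The genes are neighbours on the minus strand of chromosome 10, with Lyz2 at chr10:116714390-116719377 and Lyz1 at chr10:116724852-116729924 (mm9, GENCODE vM1). Their sequences are shown because reads of 50 bases can be shared between such copies. The coding part of the first exon lies at chr10:116729759-116729894 for Lyz1 and chr10:116719163-116719298 for Lyz2 (mm9), and the genes have the same base at 122 of its 136 positions. Capitals mark the bases that differ.
Lyz1: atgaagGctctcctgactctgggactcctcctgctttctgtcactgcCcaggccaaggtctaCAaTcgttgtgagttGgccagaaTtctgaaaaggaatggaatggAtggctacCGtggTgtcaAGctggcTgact
Lyz2: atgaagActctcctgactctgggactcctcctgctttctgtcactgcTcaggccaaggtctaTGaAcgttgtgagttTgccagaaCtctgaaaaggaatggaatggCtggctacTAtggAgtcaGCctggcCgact

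Over the whole coding sequence, 425 of 447 bases were identical (95.1%), and 195 of the 1215 stretches of 50 bases in the Lyz1 transcript also occur in that of Lyz2. Reads from such stretches map to both genes and were left out by the authors. The levels of both genes are therefore uncertain. The bases before the start sites are also alike, with 200 of 252 aligned positions identical (79.4%). They lie at chr10:117292869-117293118 for Lyz1 and chr10:117282273-117282522 for Lyz2 on the minus strand of GRCm38.p6 (RefSeq). Capitals again mark bases that differ or face a gap, and the last 50 bases before the start sites are the same in both genes.
Lyz1: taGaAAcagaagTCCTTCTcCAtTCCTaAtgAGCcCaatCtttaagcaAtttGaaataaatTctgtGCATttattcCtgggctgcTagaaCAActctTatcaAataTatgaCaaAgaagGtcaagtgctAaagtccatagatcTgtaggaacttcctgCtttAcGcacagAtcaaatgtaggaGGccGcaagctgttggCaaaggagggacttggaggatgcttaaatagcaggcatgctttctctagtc
Lyz2: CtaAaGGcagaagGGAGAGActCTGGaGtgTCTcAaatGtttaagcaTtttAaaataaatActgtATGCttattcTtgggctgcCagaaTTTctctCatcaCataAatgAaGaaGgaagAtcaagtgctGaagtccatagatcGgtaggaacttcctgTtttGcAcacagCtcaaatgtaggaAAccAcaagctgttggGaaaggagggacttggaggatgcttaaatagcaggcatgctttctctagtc

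Of 21 tested macrophage genes, 4 were called higher in adult against embryo and 0 lower, against 5.58 and 38% of all genes, with a median of 0.24 against −0.75. The 4 were Cd14 (2.23 ± 0.32), Ctss (1.49 ± 0.21), Mpeg1 (1.25 ± 0.20) and C1qa (1.16 ± 0.18). Csf2rb was lower in adult against P5 (−1.33 ± 0.25). The defining markers Csf1r (0.38, adjusted p = 0.0612), Cd68 (0.32, adjusted p = 0.0584) and Emr1 (0.30, adjusted p = 0.221) were not called. Csf1r was between 7.70 and 20.2 FPKM in all samples, with both its highest values at P5. The summed level of the list was between 160 and 345 FPKM in the embryo and between 241 and 357 FPKM in the adult, and the part of macrophages in the Lyz2 values was not tested.

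Lpo, the peroxidase that turns thiocyanate and hydrogen peroxide into an antibacterial oxidant, rose before birth and stayed high. It lies at chr11:87619930-87641791 on the minus strand (mm9). It was at 0.602, 3.95 and 3.13 FPKM at E14.5, at 59.7 and 144 FPKM at E16.5, and at 378 and 345 FPKM at E18.5. The mean of E16.5 was 39.8 times that of E14.5, a log2 fold change of 4.88 ± 0.43 (adjusted p = 4.85e-05), and E18.5 was higher than E16.5 by 1.95 ± 0.47 (adjusted p = 0.0271). The latter was lost with a pseudocount of 0.1 (1.96, adjusted p = 0.107) and without E16.5 replicate 1 (1.32, adjusted p = 0.119) or either E18.5 sample (adjusted p = 0.12 and 0.139).

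From E18.5 on Lpo was between 277.5 and 483.5 FPKM. It was at 447 and 483.5 FPKM at P5, at 355 and 391 FPKM at 4wk and at 333 and 277.5 FPKM at 12wk. Only 4wk and E18.5 overlapped among neighbours in its order of levels (P5, 4wk, E18.5, 12wk, E16.5 and E14.5). The intervals of the log2 difference were from −0.67 to 1.40 for P5 against E18.5, from −1.35 to 0.72 for 4wk against P5, and from −1.33 to 0.74 for 12wk against 4wk, and none was called. In the comparisons by stage, the error includes the rise of Lpo within the embryo. Adult against embryo was called (3.38 ± 1.37, adjusted p = 0.0367). P5 against embryo, at 3.84 ± 1.75, was not (adjusted p = 0.112), but was without E16.5 replicate 2 (adjusted p = 0.0954), E18.5 replicate 1 (adjusted p = 0.0527) or E18.5 replicate 2 (adjusted p = 0.052). By rank of the mean among 23364 genes, Lpo was at 11062 at E14.5, 172 at E18.5 and 113 at P5.

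The list of peroxidase partners holds genes of hydrogen peroxide production and anion transport, other peroxidases and Cybrd1, a ferric reductase. Of 9 tested, 3 were called higher and 3 lower in adult against embryo, against 5.58 and 38% of all genes, with a median of 0.66. Duox2, the oxidase that makes hydrogen peroxide at the cell surface, was at most 0.23 FPKM in the embryo, 1.90 and 2.91 FPKM at P5, 6.49 and 4.72 FPKM at 4wk, and 10.8 and 12.5 FPKM at 12wk (adult against embryo 3.06 ± 0.21, adjusted p = 3.3e-08). Its maturation factor Duoxa2 was at most 0.26 FPKM in the embryo and reached 26.7 and 25.6 FPKM at 12wk (4.07 ± 0.23, adjusted p = 5.66e-09). Cftr, an anion channel that also passes thiocyanate, was at 7.55 and 7.50 FPKM at 4wk and at 32.3 and 27.3 FPKM at 12wk (1.85 ± 0.21, adjusted p = 0.000273). Nox4 (−1.22 ± 0.15), Cybrd1 (−1.33 ± 0.29) and Duoxa1 (−1.62 ± 0.33) were the genes called lower in the adult. Slc5a5, the iodide transporter that also carries thiocyanate, was highest at P5, at 11.4 and 10.9 FPKM, and lower in the adult (adult against P5 −1.81 ± 0.58, adjusted p = 0.0226). At E18.5, with Lpo at 345 FPKM or more, Duox2 was at most 0.101 FPKM. In the same samples Duox1 was at 0.230 and 0.123 FPKM, Duoxa1 at 1.155 and 1.071 FPKM, and Nox4 at 1.28 and 1.60 FPKM.

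Slpi, an inhibitor of neutrophil elastase, lies at chr2:164179806-164214831 on the minus strand and Wfdc2 at chr2:164387913-164394010 on the plus strand (mm9), and both encode proteins of the whey acidic protein family. Slpi was low until 12wk. It was at 0.059, 0.405 and 0.598 FPKM at E14.5, 1.23 and 0.704 FPKM at E16.5, 0.329 and 0.317 FPKM at E18.5, and 0.614 and 0.731 FPKM at P5. No read fell on it at 4wk, which allows up to 0.589 and 0.43 FPKM (3 reads) in these shallow libraries. At 12wk it was at 11.5 and 3.77 FPKM (220 and 94 reads), above all other samples.

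The mean of Slpi at 12wk was 7.64 ± 5.47 FPKM (SD, n = 2). Even the lower 12wk sample was at least 6.41-fold higher than the larger of these floors, taken per library. The fit gave 2.95 ± 0.36 (adjusted p = 0.000462), a value that depends on the pseudocount. The call was lost when only the samples of 4wk and 12wk entered the fit (adjusted p = 0.139), and adult against embryo was not called (0.91 ± 0.55, adjusted p = 0.15). The latter was called after rescaling (1.27, adjusted p = 0.0977) and without 4wk replicate 1 or 2 (1.40 in both cases, adjusted p = 0.0334 and 0.0339). From P5 to 4wk the difference was −0.74 ± 0.36, called with a pseudocount of 0.1 alone. The replicate with less Pigr and Amy1 held more Slpi, by 3.05 times. In the order 12wk, E16.5, P5, E14.5 and E18.5, the samples of E16.5 overlapped those of P5, and those of E14.5 overlapped those of E18.5. The place of 4wk is not set, since 3 reads there allow more than the E18.5 values.

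Wfdc2, a secreted protein of epithelia also known as HE4, was highest before birth. It was at 34.4, 37.4 and 34.6 FPKM at E14.5, 329 and 302 FPKM at E16.5, 306 and 324 FPKM at E18.5, 91.0 and 117 FPKM at P5, 75.27 and 75.25 FPKM at 4wk, and 161 and 128 FPKM at 12wk. Only E16.5 and E18.5 overlapped. E16.5 was higher than E14.5 by 3.12 ± 0.14 (adjusted p = 2.91e-07) and P5 differed from E18.5 by −1.60 ± 0.15 (adjusted p = 0.000106), and both calls were kept in all 22 alternatives. Between 4wk and 12wk the difference was 0.92 ± 0.15 (adjusted p = 0.00298), under the threshold of fold, and without 12wk replicate 2 it was called (1.09, adjusted p = 0.0071). The difference of 4wk from P5 was −0.45 ± 0.15 (adjusted p = 0.0242) and after rescaling it was 0.22 (adjusted p = 0.339), so that its direction depends on the scale.

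Wfdc18, a secreted protein listed as Expi in GENCODE vM1 (chr11:83522517-83524850, plus strand, mm9), was the most abundant of the 10 genes from E14.5 on by mean FPKM. It was at 13.6, 85.04 and 73.8 FPKM at E14.5, 847 and 570 FPKM at E16.5, 902 and 1325 FPKM at E18.5, 671 and 769 FPKM at P5, 526 and 616 FPKM at 4wk, and 720 and 282 FPKM at 12wk. The rise from E14.5 to E16.5 was 3.94 ± 0.64 (adjusted p = 0.00231), kept in all 22 alternatives, and from E16.5 on no step was called. The mean ranked between 70 and 102 among 23364 genes from E16.5 to 12wk. Neighbours in its order of levels (E18.5, P5, E16.5, 4wk, 12wk and E14.5) overlapped except for E18.5 with P5 and 12wk with E14.5. The 12wk replicates differed by 2.55 times, with the lower value in replicate 2.

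Among 7 other genes of the family that were tested, Wfdc12 far exceeded these members, at 25820 and 28890 FPKM at 4wk and between 6.30 and 8.05 FPKM at E14.5 (adult against embryo 9.42 ± 0.94, adjusted p = 8.49e-07). Wfdc17 was called higher (1.97 ± 0.36) and Wfikkn2 lower (−1.12 ± 0.26) in the adult than in the embryo, and Wfdc1 was lower in adult against P5 (−1.26 ± 0.26). Of 20 other antimicrobial and iron-binding genes tested, 4 were called higher and 7 lower in adult against embryo, against 5.58 and 38% of all genes. Their median was −0.34, against −0.75 over all genes. Among those called higher, Cfd (3.76 ± 0.68), C3 (2.04 ± 0.36) and Hp (2.16 ± 0.39), genes of complement and of haemoglobin binding, had the largest log2 fold changes. Cfd, also a fat cell gene, was at 112 and 8.99 FPKM in the 4wk samples, where Ucp1 was at 106 and 0 FPKM, and the part of fat in its values was not tested. Cst6, a cystatin, was higher in adult against P5 (1.31 ± 0.42). Dmbt1, a scavenger protein of saliva, was at 81.4 and 93.1 FPKM at P5 and at most 0.18 FPKM in the adult (adult against P5 −6.30 ± 1.05, adjusted p = 0.000559). Pglyrp1, which binds bacterial cell wall and was named after its values were seen, peaked at E18.5, at 440 and 565 FPKM, and was at 58.5 and 59.1 FPKM at 12wk.

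The 10 genes were chosen with earlier results of these data known, so their counts beside the shares of all genes are a description. From E14.5 to E16.5, 5 of the 10 genes were called higher (Ltf, Lpo, Lyz2, Wfdc2 and Wfdc18) and none lower. Of all tested genes, 4.17% were called higher and 0.983% lower in this step. Of 10 epithelial markers 7 were called higher in the same step, with a median of 1.76, and 4 of the 10 genes were called without E14.5 replicate 1. From E16.5 to E18.5, 2 of 10 were higher (Pigr and Lpo) and none lower, against 1.09 and 1.85% of all genes (1.32 and 1.16% after rescaling), and both calls were lost without E18.5 replicate 2. From E18.5 to P5, none of the 10 was higher and 3 were lower (Ltf, Lcn2 and Wfdc2), against 2.07 and 2.97% of all genes (2.38 and 1.79% after rescaling), and Wfdc2 alone was called after rescaling.

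From P5 to 4wk, 3 of 10 were called higher (Pigr, Igj and Lcn2) and 1 lower (Ltf), where 2.19% of all tested genes were called higher and 22.1% lower. After rescaling, 5 of 10 were higher and 1 lower, against 6.4 and 8.75% of all genes. From 4wk to 12wk, 2 were higher (Igj and Slpi) and none lower, against 2.68 and 2.48% of all genes. By stage, P5 against embryo had 1 higher (Pigr) and 1 lower (Lcn2), against 4.14 and 8.14% of all genes (5.57 and 3.91% after rescaling). After rescaling 2 were higher (Pigr and Lyz2) and none lower. As reported, both calls were lost without either of the P5 samples. Adult against P5 had 2 higher (Igj and Lcn2) and 1 lower (Ltf), against 2.31 and 20.8%, or 3 higher and none lower against 6.07 and 8.56% after rescaling. Adult against embryo had 6 higher (Pigr, Igj, Lpo, Lcn2, Lyz1 and Lyz2) and 1 lower (Ltf), against 5.58 and 38%. After rescaling, 7 were higher, Slpi added, and 1 lower, against 13.8 and 14.7%.

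Cell type lists moved across the same comparisons, and their part in the results was not tested. Of all genes, 5.58% were called higher and 38% lower in adult against embryo (13.8 and 14.7% after rescaling), with a median of −0.75. In adult against embryo, 4 of 10 epithelial genes were called higher, Klk1 (9.75 ± 0.99), Bhlha15 (3.10 ± 0.93) and Aqp5 (2.49 ± 1.14) the most, and Krt19 lower (−2.41 ± 0.48). Of 8 mesenchymal genes 7 were lower, with Col1a1 (−4.27 ± 0.39), Col3a1 (−4.03 ± 0.45) and Col1a2 (−3.94 ± 0.32) the most, and all 8 skeletal muscle genes were lower, among them Mylpf (−5.16 ± 1.20), Acta1 (−4.20 ± 1.18) and Tnnt3 (−4.06 ± 1.04). The summed muscle level was between 962 and 1340 FPKM at E16.5 and at most 47.6 FPKM from E18.5 on. All 4 tested erythroid genes were lower, with Hbb-y (−5.55 ± 1.62) and Alas2 (−4.53 ± 0.25) the most.

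**Figure D5:**
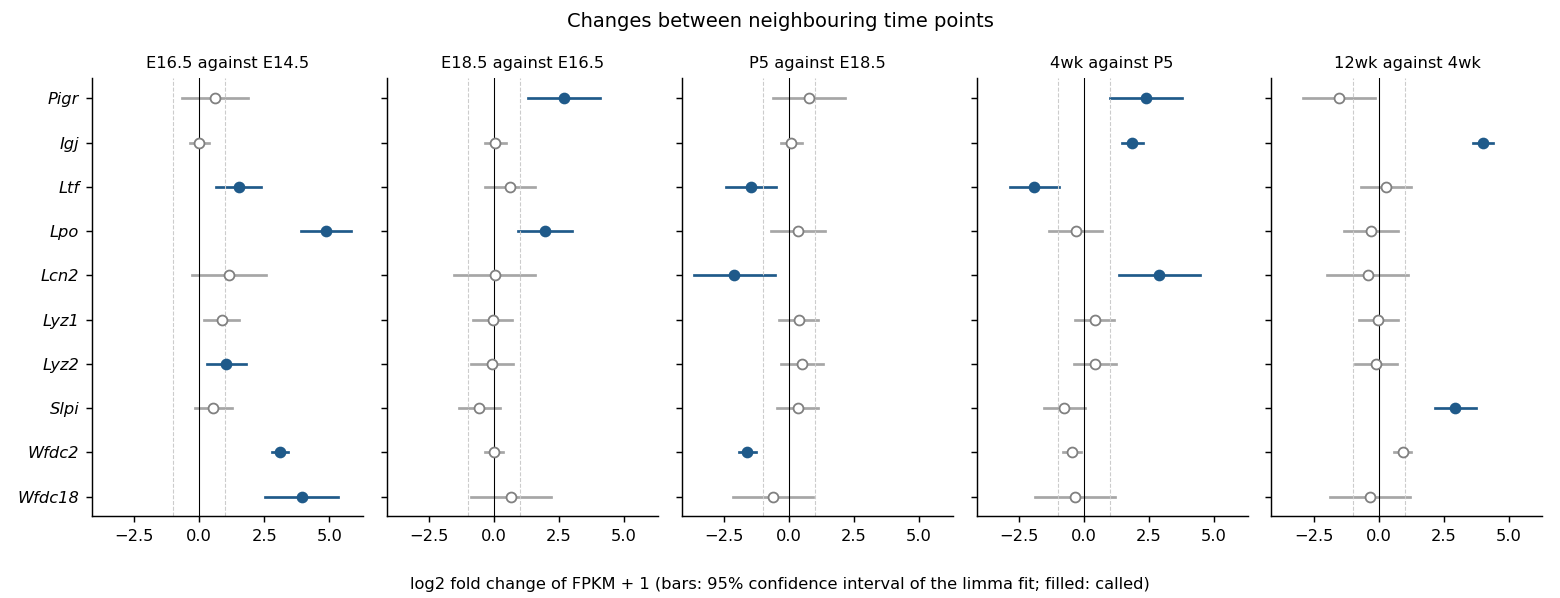
Log2 fold change of FPKM + 1 for each of the 10 genes (rows) in the 5 comparisons of neighbouring time points (panels), with the 95% confidence interval as a bar and filled points for called changes. The filled points lie right of 0 in the first and second panels and left of 0 in the third.

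The genes closest in pattern were found by Pearson's r of log2(FPKM + 1) over the 13 samples, given as a description. They included Irf7 and Tmem125 for Pigr (r = 0.962 and 0.96), Slco1a6, Gm9992 and Upp2 for Igj (r = 0.995, 0.991 and 0.99), and Pip5k1b, Tbc1d30 and Lrrc26 for Lpo (r = 0.996, 0.995 and 0.994). For Ltf they were Prss34, 9130017N09Rik and Atp2c2 (r = 0.963, 0.953 and 0.943), and for Lcn2 Oat, Galnt10 and Gpx1, with the lowest values of all (r = 0.905, 0.85 and 0.824). Ninj1 was nearest to both Lyz1 and Lyz2 (r = 0.93 and 0.946), followed by Hibadh and 2310030G06Rik for Lyz1 (r = 0.926 and 0.921) and Acot13 and Il15 for Lyz2 (r = 0.94 and 0.937). Msln, 4930597G03Rik and 2510049J12Rik were nearest to Slpi (r = 0.96, 0.944 and 0.941), Fbp1, Tmem9b and Tspan1 to Wfdc2 (r = 0.924, 0.915 and 0.91), and Marveld3, Efcab4a and Fxyd3 to Wfdc18 (r = 0.974, 0.972 and 0.97). The points share their libraries, their depth and their scale.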

How the data were processed

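Glands of 13 samples at 6 time points were compared, with groups taken from the labels. Reads (50 bp, single-end) had been aligned to mm9 by TopHat2 2.0.13 on Bowtie2 2.2.6 and counted per gene by featureCounts, without those of several places or genes. The authors deposited FPKM and name DESeq2 1.10.1 for normalization. Size factors by median of ratios ran from 0.617 to 1.38, so the values were taken as scaled to each sample's total. Reads of the members were recovered from the steps of FPKM, with the smallest length that gave whole reads in all samples (within 0.05 reads), and bounds of 3 reads cover counting error only.

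A gene was tested if 1 sample or more reached 1 FPKM. Log2(FPKM + 1) was fitted with limma 3.58.1 in R 4.3.3 over all samples, by stage and by time point, with a variance trend and Benjamini-Hochberg adjustment. The fit was tested on simulated data. The rule named all members, defining markers of cell types, up to 3 called genes each way per list in adult against embryo or adult against P5, by size, and the 3 most correlated genes per member. Other genes were named after their values were seen. A few genes that the rule names are not reported here. The 10 members and all lists were chosen with earlier results of these data known. Results were recomputed with a pseudocount of 0.1, without or with a stricter filter, both rescalings, an adjusted p below 0.05, no trend, a replicate block, only the groups compared, and each sample left out. Tables and alignments were made in Python 3.11.15 with pandas 2.3.3 and Biopython 1.88.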

Additional observations from a re-analysis of the deposited data

Results flagged for a closer look

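Lcn2 stood apart in 2 samples. In E14.5 replicate 1 it was at 3.526 FPKM, below the other 6 embryonic samples by a gap of 0.646 of their whole range, past the critical value of Dixon's test. This library also had the most Col2a1 and, among the E14.5 samples, the lowest Epcam, Lpo, Wfdc18 and Lyz2, and the part of these in the value was not tested. In 4wk replicate 2 Lcn2 was at 81.61 FPKM, above the other 3 adult samples by 0.886 of the range. These were 2 of 20 groups tested, and chance singles out about 1 group in 20. Pigr in 12wk replicate 1, at 10.85 FPKM, had a gap of 0.797 of the adult range and was not past the critical value.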

How the results depend on the processing

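Of 28 calls of the members, 16 were kept in all 22 alternatives, and none of the 28 changed direction. With a pseudocount of 0.1, 1 member was called in E18.5 against E16.5. With no filter on low values, with an adjusted p below 0.05 and with only the groups compared, 1 was called in P5 against embryo, and the last also left 1 in 12wk against 4wk. Median-of-ratios rescaling and rescaling without the 50 highest genes each left 1 in P5 against E18.5. With single samples left out, the number called ranged from 0 to 3 for P5 against embryo, 2 to 4 for adult against P5, 5 to 8 for adult against embryo, 4 to 6 for E16.5 against E14.5, 0 to 2 for E18.5 against E16.5, 1 to 3 for P5 against E18.5, 4 to 4 for 4wk against P5 and 2 to 4 for 12wk against 4wk. A time point left with 1 sample was assumed to vary like the others. Wfdc2 in 4wk against P5, not called, went from −0.45 to 0.218 after median-of-ratios rescaling. The cause of these changes was not tested.

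Over all genes, only the groups compared gave 244 calls in 12wk against 4wk where all samples gave 755, a pseudocount of 0.1 gave 1658, and leaving out 4wk replicate 2 gave 1472. Leaving out P5 replicate 1 or 2 gave 870 or 1049 calls in P5 against embryo, against 1798. With a pseudocount of 0.1 there were 5767 calls in 4wk against P5 (3556 as reported), 5320 in adult against P5 (3385), 1183 in E16.5 against E14.5 (755) and 1163 in P5 against E18.5 (738). Median-of-ratios rescaling gave 2213, 2137 and, in adult against embryo, 4167 (6385 as reported). With the replicate number as a block, 2, 3 and 7 members were called by stage and 5, 2, 3, 4 and 2 by successive time points, as without it. The mean correlation of deviations from time point means was −0.016 over the 30 pairs that share a number and 0.012 over 40 others. With 2 samples in a time point the deviations mirror each other, so these means are not independent. Single correlations ran from −0.352 to 0.273 for shared numbers, and the check cannot show whether some samples share a batch. The shallow 4wk libraries limit Slpi and Ltf, at 0 reads in 2 and 1 of them.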

Other observations

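Other genes also separated the 12wk samples. Smgc, a mucin-like product of the neonatal gland, was at 0.154 FPKM in 12wk replicate 1 and at 58.55 FPKM in replicate 2, BC048546 at 0.341 and 132 FPKM, and Muc19, a mucin gene, at 0.0252 and 2.19 FPKM. Of 4531 genes with at least 10 FPKM in either 12wk sample, 17 differed by 4 times or more (FPKM + 1), compared with 37 of 4824 at 4wk and 10 of 6217 at P5. Pigr was among the 17, and the differences of replicate 2 from replicate 1 were −1.39 for Slpi and −1.35 for Wfdc18 on the log2 scale.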
